A study of Mus musculus with 9 samples.

Results

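The 77 genes described here encode proteins of the mitochondrial ribosome. They are all the genes in the deposited table of TPM (a transcript level scaled by gene length and library depth) whose symbol is Mrpl or Mrps followed by a number and at most one of the letters a, b or c, which gave 77 of the 26157 genes in the table. Poly-A RNA of the mouse macrophage line J774A.1 was sequenced, and each of the 3 groups has 3 of the 9 libraries. Control cells were grown under normal conditions, M2 cells were treated with the cytokines IL-4 and IL-13 at 10 ng/mL, and Q11 cells were given Q11 at the same time as both cytokines. The series title describes Q11 as an inhibitor of CYP2E1, a cytochrome P450 enzyme. Its dose and the length of treatment are not given in the sources used here, and the labels leave it unsaid whether the replicates were grown apart. The spread behind every p-value is that between these libraries, which may be technical.

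Mitochondria keep their own ribosome, which translates only the proteins encoded in mitochondrial DNA, all of them subunits of the respiratory chain and ATP synthase. Its RNA is made inside the organelle, while every one of its proteins is encoded in the nucleus, made in the cytoplasm and imported. The small subunit (Mrps genes) binds messenger RNA and decodes it, and the large subunit (Mrpl genes) joins the amino acids and releases the chain through an exit tunnel into the inner membrane. Many of these proteins have a bacterial counterpart, and the others are specific to mitochondria. In macrophages, IL-4 is known to induce a metabolic state that relies on oxidative phosphorylation. The symbols do not always match the place of the protein: the products of Mrps30 and Mrps18a sit in the large subunit, and the product of Mrps36 is a subunit of the oxoglutarate dehydrogenase complex and was set apart. That left 50 genes of the large subunit, 26 of the small subunit and Mrps36.

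Reads recovered from TPM and exon lengths came to between 15477729 and 16724174 per library in 8 libraries and to 31501568 in Q11 replicate 2. That library had fewer reads than Q11 replicate 3 for 10 of 18911 genes. Against the other 7 libraries this was 1909 to 2387 genes, so Q11 replicates 2 and 3 are not independent. Among the 77 members it was 0 against every other library, so the members alone do not show this. Values are as deposited. Counts and lost calls are also given from a fit in which the reads of replicate 3 were taken out of replicate 2, called "separated" here. Each of these fits estimates the spread from all 9 libraries, and shared reads can make it too small. The p-values and SEs of M2 against control therefore also depend on the Q11 libraries. All 10 of the macrophage markers examined (such as Csf1r, Adgre1 and Cd68) reached 1 TPM. They summed to 11807 to 12233 TPM in control, 7790 to 8401 in M2 and 8144 to 8240 in Q11. The M2 sum was lower mainly through Lyz2, at 6698 to 7140 TPM in control and 3343 to 3766 in M2. Cd14 was at 1497 to 1545 and 918 to 988 TPM. Ptprc and Itgam were also lower in M2 without overlap, Mertk was higher, and the other markers overlapped between control and M2. Of 11 markers of other cell types, 7 were in the table and 2 reached 1 TPM in any library (S100a8 and Cdh5). The 7 summed to 31.2 to 40.9 TPM in control, 19.3 to 31.8 in M2 and 18.5 to 21.1 in Q11. Most of this was S100a8, at 16.1 to 38.0 TPM over all libraries. The part of these markers in the results was not tested. In bulk RNA, fewer cells that express a gene and less RNA of it per cell cannot be told apart.

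All 77 genes were read in all 9 libraries, from 127 reads (Mrps18c) to 5159 reads (Mrpl12) in a library. Together they made up 0.548% to 0.605% of all TPM. On the TPM scale, which is per length, their median level was 56.3 TPM, against 17.2 TPM for all 14207 genes tested. Mrpl12, whose protein forms the stalk that recruits translation factors, had the highest mean over the 9 libraries at 347 TPM. It was followed by Mrpl34 (295 TPM), Mrpl28 (224 TPM), Mrpl18 (203 TPM) and Mrpl2 (202 TPM). All 5 have bacterial counterparts in the large subunit. Mrpl18 and Mrpl2 overlapped in their libraries, at 186 to 221 TPM and 191 to 220 TPM. The lowest were Mrpl48 at 6.91 TPM, Mrpl33 at 10.2, Mrps30 at 12.2, Mrpl32 at 13.7 and Mrps35 at 15.4 TPM. The proteins of this ribosome are held in one particle, but the TPM of their genes spanned 50.2-fold. Read counts, which are not per length, spanned 15.8-fold. TPM fell with exon length (Spearman rho = -0.70 across the 77 genes, which share libraries and are not replicates), and for reads rho was 0.26. Some of the low TPM values therefore belong to genes with long annotated exons, such as Mrpl48 (8152 bases) and Mrpl33 (7326 bases), against 607 bases for Mrpl34. The median level was 59.9 TPM for the large subunit and 48.2 TPM for the small subunit. Between the 3 control libraries the SD of a member was 3.95% of its mean in the median, from 0.521% to 14.5% (Mrps11).

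**Figure D1:**
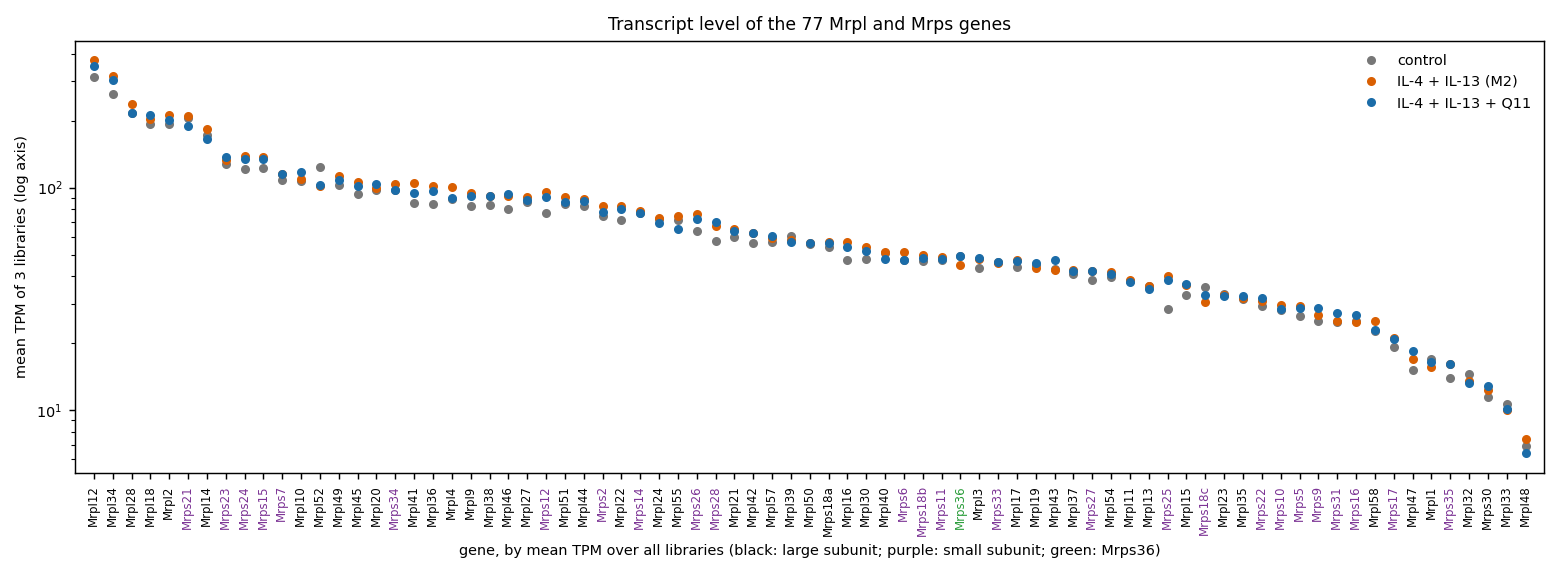
TPM (log axis) of each of the 77 genes, ordered by level, with a coloured point for the mean of the 3 libraries of each group and the gene names coloured by subunit. Over all 9 libraries the means run from 6.91 TPM for Mrpl48 to 347 TPM for Mrpl12, and the group means of a gene lie close together.

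The 77 genes lie on 17 chromosomes. Of these, 18 (23.4%) share a start region with a protein-coding gene read in the opposite direction, with no more than 1000 bases between the starts, against 1226 of 10909 protein-coding genes tested (11.2%). Exons of 24 members overlap those of another gene at 1 TPM or more, on the same strand for 3 and on the other strand for 21. Strand use in counting is not given in the sources used here, so reads of such pairs cannot be told apart. For 18 of the 77, a pseudogene copies at least 200 bases at 95% identity or more, and in 4 cases the copy had at least 10% of the member's TPM. These were Mrps10 (28.8 TPM, its copy 55.8 TPM), Mrpl48 (6.91 and 9.71 TPM), Mrps33 (46.1 and 8.32 TPM) and Mrpl23 (32.8 and 3.28 TPM), named for their copies after the values were seen. Their levels are uncertain, since reads can be split between gene and copy.

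Promoters were searched because nuclear genes for mitochondrial proteins are known for sites of the ETS factor GABPA and of NRF1 and YY1. The RefSeq promoter table (GRCm38.p6, 250 bases before to 50 after the start, the first window of a gene) held 68 of the 77 genes. The letters CCGGAAG (ETS) stood on either strand in 24 of the 68 (35.3%), compared with 19.6% of the 9310 tested genes in the table and 9.12% of all 27025 windows. AAGATGGC (YY1) stood in 12 (17.6%), compared with 5.24% and 2.88%. The core of the NRF1 motif, GCATGCGC, stood in 8 (11.8%), compared with 5.77% and 2.81%. The full NRF1 motif, which contains that core, stood in 3 (4.41%), compared with 2.25% and 0.977%. At least one of CCGGAAG, GCATGCGC and AAGATGGC was found in 36 of the 68 windows (52.9%), against 27.99% of the tested genes. It was 8 of 16 windows (50%) among the genes called in M2 against control and 28 of 52 (53.8%) among the others. Shown here are the 120 bases before the start of the 5 called genes that hold a motif there and whose shown bases enter the annotated gene by no more than 30 bases. Mrpl52 fell in M2 and the other 4 rose. Capitals mark a motif on either strand, so that CTTCCGG is CCGGAAG read from the other strand. All 5 lie on the plus strand of GRCm38: Mrpl22 at chr11:58171544-58171663, Mrpl34 at chr8:71464806-71464925, Mrpl9 at chr3:94443216-94443335, Mrps26 at chr2:130563637-130563756 and Mrpl52 at chr14:54426789-54426908.
Mrpl22: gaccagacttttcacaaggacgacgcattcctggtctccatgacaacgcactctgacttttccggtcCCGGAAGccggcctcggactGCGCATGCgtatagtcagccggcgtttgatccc
Mrpl34: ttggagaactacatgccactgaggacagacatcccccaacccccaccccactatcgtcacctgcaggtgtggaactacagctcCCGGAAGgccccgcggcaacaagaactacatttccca
Mrpl9: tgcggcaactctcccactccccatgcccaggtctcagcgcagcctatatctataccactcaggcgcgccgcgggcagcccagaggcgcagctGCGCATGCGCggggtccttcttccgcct
Mrps26: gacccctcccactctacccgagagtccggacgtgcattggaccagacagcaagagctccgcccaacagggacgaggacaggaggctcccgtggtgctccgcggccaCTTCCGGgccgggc
Mrpl52: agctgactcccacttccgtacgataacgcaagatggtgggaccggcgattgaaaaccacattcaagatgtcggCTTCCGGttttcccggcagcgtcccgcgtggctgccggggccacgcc
An ETS match stands in the gene that fell as well as in 3 of those that rose. Mrpl22 holds an ETS and an NRF1 core match, and Mrpl9 the full NRF1 motif. A match of letters is a description and shows no binding.

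The first comparison, M2 against control, asks how the genes responded to both cytokines. In M2, 17 of the 77 genes rose and 1, Mrpl52, fell (limma, adjusted p under 0.05 over all genes tested), while 6.88% of all 14207 genes tested rose and 5.75% fell. The differences were small. The largest was in Mrps25, at 40.5%, and the other risen genes were between 8.80% (Mrpl28) and 23.7% (Mrps12) higher. The difference was above 0 in 65 of the 77 genes, against 49.4% of all genes, and its median was 0.09 on the scale of log2(TPM + 1), against -0.00 for all genes tested. The M2 libraries lay above all control libraries in 29 members (background 14.5%) and below them in 2 (background 13.9%), Mrpl52 and Mrps36. By subunit, 13 of 50 large-subunit genes rose and 1 fell, and 4 of 26 small-subunit genes rose. By origin, 12 of 46 genes classed with a bacterial counterpart rose, and 5 of 30 classed as mitochondria-specific rose and 1 fell. The median difference was 0.09 in each of these 4 classes. The class of Mrpl55, counted among the 46 and not called, is uncertain. With reads separated, 10 members rose (background 4.99%) and 0 fell (background 4.35%), and these 10 were all among the 17. By subunit, they were 7 of 50 large-subunit and 3 of 26 small-subunit genes. By origin, they were 6 of 46 genes with a bacterial counterpart and 4 of 30 mitochondria-specific genes, so these shares were alike. The count was also lower when 1 library was left out, as was the background. It was 10 without control replicate 1 (background 4.33%). It was 11 without control replicate 3, M2 replicate 3 or Q11 replicate 2 (background 4.48%, 4.93% and 5.06%). Mrpl12, Mrpl16, Mrpl36, Mrpl4, Mrpl41, Mrpl45, Mrps12, Mrps25 and Mrps26, 9 of the 18 called genes, kept their call in all 18 alternative settings run.

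**Figure D2:**
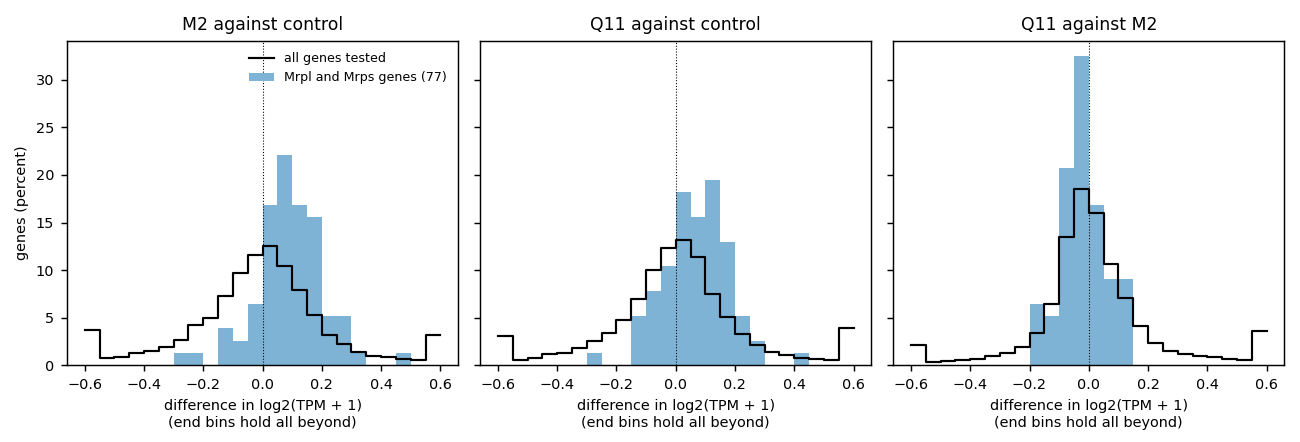
Share of genes (percent) by their difference in log2(TPM + 1) for the 3 comparisons, with the 77 members as bars and all 14207 genes tested as a line. In M2 against control the members centre on 0.09 and all genes on -0.00, and in Q11 against M2 the members centre on -0.03.

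In the small subunit, Mrps25 (chr6:92169525-92184033, minus strand), a mitochondria-specific protein, was at 28.3, 29.9 and 27.4 TPM in the control libraries, 38.7, 40.9 and 40.6 TPM in M2 and 42.2, 35.5 and 37.1 TPM in Q11. Every M2 and Q11 library stood above every control library. The M2 difference was 0.48 (SE 0.064, limma adjusted p = 0.00181), and the Q11 against control difference was 0.41 (SE 0.064, limma adjusted p = 0.0044). Mrps26 (chr2:130563742-130568695, plus strand), also mitochondria-specific, had the smallest p among members, and its promoter is shown above. It was at 64.0, 62.8 and 63.8 TPM in control, 74.8, 76.7 and 75.6 TPM in M2 and 72.6, 71.0 and 72.1 TPM in Q11. The SD within the groups was 0.622, 0.974 and 0.808 TPM, and the 3 groups did not overlap. It rose by 0.25 in M2 (SE 0.0261, limma adjusted p = 0.000463). Mrps12 (chr7:28739641-28741820, minus strand) encodes the counterpart of the bacterial protein at the decoding centre. It was at 73.8, 82.1 and 75.2 TPM in control, 102, 94.9 and 89.1 TPM in M2 and 88.9, 90.04 and 93.3 TPM in Q11. All cytokine-treated libraries were higher than control, by 0.30 for M2 (SE 0.0556, limma adjusted p = 0.00899). Mrps24 (chr11:5703983-5715680, minus strand), the counterpart of a bacterial protein at the entry of the messenger RNA channel, rose least clearly of the 4. It was at 119, 123 and 121 TPM in control, 133, 133 and 151 TPM in M2 and 137, 131 and 134 TPM in Q11. Without overlap, its M2 difference was 0.19 (limma adjusted p = 0.0341), and the call was lost with reads separated (limma adjusted p = 0.0503).

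In the large subunit, Mrpl12 (chr11:120484613-120489065, plus strand), the stalk protein and the most abundant member, was at 313, 318 and 311 TPM in control, 357, 376 and 387 TPM in M2 and 348, 354 and 356 TPM in Q11. Both treated groups stood above control without overlap, and M2 differed from control by 0.25 (SE 0.0306, limma adjusted p = 0.00115). Its stalk partners Mrpl10 and Mrpl11 were not called (both 0.03, limma adjusted p = 0.786 and 0.879), so 1 of 3 stalk genes rose. Of the 7 genes listed for the mouth of the exit tunnel, 2 rose, Mrpl22 and Mrpl45. Mrpl4 (chr9:21002738-21008839, plus strand), which reaches into the tunnel wall and is not counted in that list, was at 87.1, 90.03 and 90.1 TPM in control, 98.3, 101 and 103 TPM in M2 and 91.2, 90.1 and 89.2 TPM in Q11. Here M2 stood above both other groups, which overlapped each other. The M2 difference was 0.17 (SE 0.0283, limma adjusted p = 0.00482). Mrpl22 (chr11:58171661-58179565, plus strand), whose promoter is shown above, was at 75.7, 72.1 and 67.8 TPM in control and 79.1, 86.6 and 81.2 TPM in M2. The groups did not overlap, but the call was at the edge (0.19, limma adjusted p = 0.0476) and was lost with reads separated (limma adjusted p = 0.175). Mrpl45 (chr11:97315716-97329920, plus strand), which anchors the ribosome to the inner membrane, was at 92.8, 95.2 and 94.1 TPM in control, 106, 102 and 111 TPM in M2 and 103, 100 and 102 TPM in Q11. It rose by 0.17 in M2 (SE 0.0333, limma adjusted p = 0.0117), with every M2 library above every control library.

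Among the large-subunit genes with bacterial counterparts, Mrpl36 (chr13:73328513-73332178, plus strand), one of the smallest ribosomal proteins, was at 82.0, 85.8 and 85.9 TPM in control, 102, 99.9 and 105 TPM in M2 and 99.3, 92.2 and 99.5 TPM in Q11. M2 lay above control in all libraries, by 0.27 (SE 0.0384, limma adjusted p = 0.00246). Mrpl16 (chr19:11770391-11774960, plus strand), the counterpart of a bacterial protein near the tRNA entry site, was at 44.6, 49.7 and 47.8 TPM in control, 56.9, 58.4 and 55.1 TPM in M2 and 54.3, 52.1 and 56.2 TPM in Q11. It rose by 0.26 (SE 0.0476, limma adjusted p = 0.00918), again with no overlap. Mrpl34 (chr8:71464959-71465747, plus strand) had control libraries at 264, 261 and 263 TPM, and wider M2 and Q11 groups at 297, 340 and 315 TPM and at 340, 286 and 285 TPM. Its M2 difference was 0.27 (SE 0.0702, limma adjusted p = 0.0384). Mrpl28 (chr17:26123500-26126613, plus strand) was at 217, 219 and 216 TPM in control, 232, 237 and 240 TPM in M2 and 213, 224 and 213 TPM in Q11. This was the smallest of the called differences (0.12, SE 0.0275, limma adjusted p = 0.0219), and the Q11 libraries fell on both sides of control. Mrpl2 (chr17:46646229-46650139, plus strand), whose bacterial counterpart lies next to the peptidyl transferase centre, was at 196, 191 and 193 TPM in control and 220, 207 and 209 TPM in M2. It did not overlap and differed by 0.13 (limma adjusted p = 0.0376). Mrpl9 (chr3:94443318-94451130, plus strand) and Mrpl15 (chr1:4773206-4785739, minus strand) differed by 0.19 and 0.15. Mrpl9 was at 83.8, 80.9 and 82.7 TPM in control and 94.5, 87.0 and 102 TPM in M2, and Mrpl15 at 31.0, 34 and 33.2 TPM and at 36.5, 36.7 and 36.3 TPM. Their limma adjusted p were 0.0415 and 0.0451. The calls of Mrpl28, Mrpl2, Mrpl9 and Mrpl15 were lost with reads separated (limma adjusted p = 0.123, 0.0533, 0.0673 and 0.0646).

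Of the mitochondria-specific genes of the large subunit, Mrpl41 (chr2:24974117-24975098, minus strand) rose most clearly. It was at 83.8, 84.6 and 86.7 TPM in control, 101, 104 and 109 TPM in M2 and 96.0, 94.3 and 92.9 TPM in Q11. The 3 groups did not overlap, with Q11 between the others, and M2 differed from control by 0.30 (SE 0.0332, limma adjusted p = 0.000651). Mrpl46 (chr7:78775236-78783531, minus strand), whose exons overlap those of Mrps11, was at 77.1, 79.1 and 84.5 TPM in control, 86.9, 92.7 and 95.2 TPM in M2 and 92.3, 91.5 and 97.7 TPM in Q11. Its M2 difference was 0.19 (limma adjusted p = 0.034, and 0.0826 with reads separated). Mrpl52 (chr14:54426909-54429756, plus strand) went the other way from the other called members. It was at 118, 126 and 127 TPM in control, 102, 107 and 95.6 TPM in M2 and 106, 96.9 and 106 TPM in Q11. Every treated library was below every control library. The M2 difference was -0.28 (SE 0.0544, limma adjusted p = 0.0109), and with reads separated it missed the threshold (limma adjusted p = 0.0593).

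**Figure D3:**
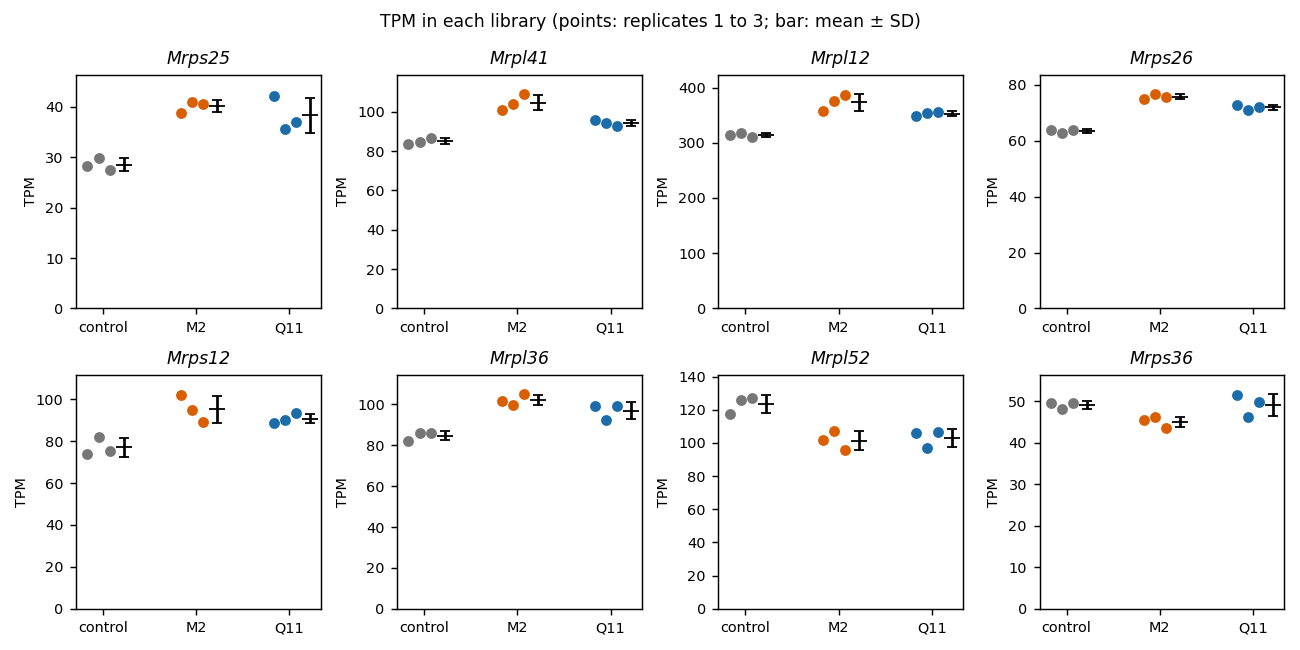
TPM (axis from 0) in each library for 8 genes, with points for replicates 1 to 3 and a bar for the mean ± SD of each group. Mrps25, Mrps26 and Mrpl12 are higher in every M2 and Q11 library than in any control library, and Mrpl52 is lower.

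Members with a place of their own were examined whatever their values, and none of these was called in M2 against control. Mrps36, the oxoglutarate dehydrogenase subunit, was at 49.7, 48.1 and 49.5 TPM in control, 45.4, 46.1 and 43.7 TPM in M2 and 51.4, 46.3 and 49.8 TPM in Q11. Its M2 libraries lay below all others, at a difference of -0.12 from control that did not pass the test (limma adjusted p = 0.116). The 3 Mrps18 paralogs take different places, Mrps18a in the large subunit and Mrps18b and Mrps18c in the small. Their differences were 0.08, 0.08 and -0.23 (limma adjusted p = 0.248, 0.559 and 0.308). Mrps18c varied most, at 32.8, 35.5 and 39.4 TPM in control, 29.4, 25.2 and 37.3 TPM in M2 and 35.8, 29.8 and 32.9 TPM in Q11, and its groups overlapped. Mrps30 was at 13.1, 10.8 and 10.5 TPM in control and 11.8, 11.98 and 13.4 TPM in M2 (0.11, limma adjusted p = 0.506). Mrpl58, a peptidyl-tRNA hydrolase built into the large subunit, was at 22.8, 22.8 and 22.1 TPM in control and 27.3, 22.4 and 25.9 TPM in M2, with overlap (0.15, limma adjusted p = 0.224). Mrpl3, next to the peptidyl transferase centre, was at 46.0, 44.2 and 40.4 TPM in control and 46.9, 46.7 and 49.5 TPM in M2, without overlap but not called (0.13, limma adjusted p = 0.132).

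**Figure D4:**
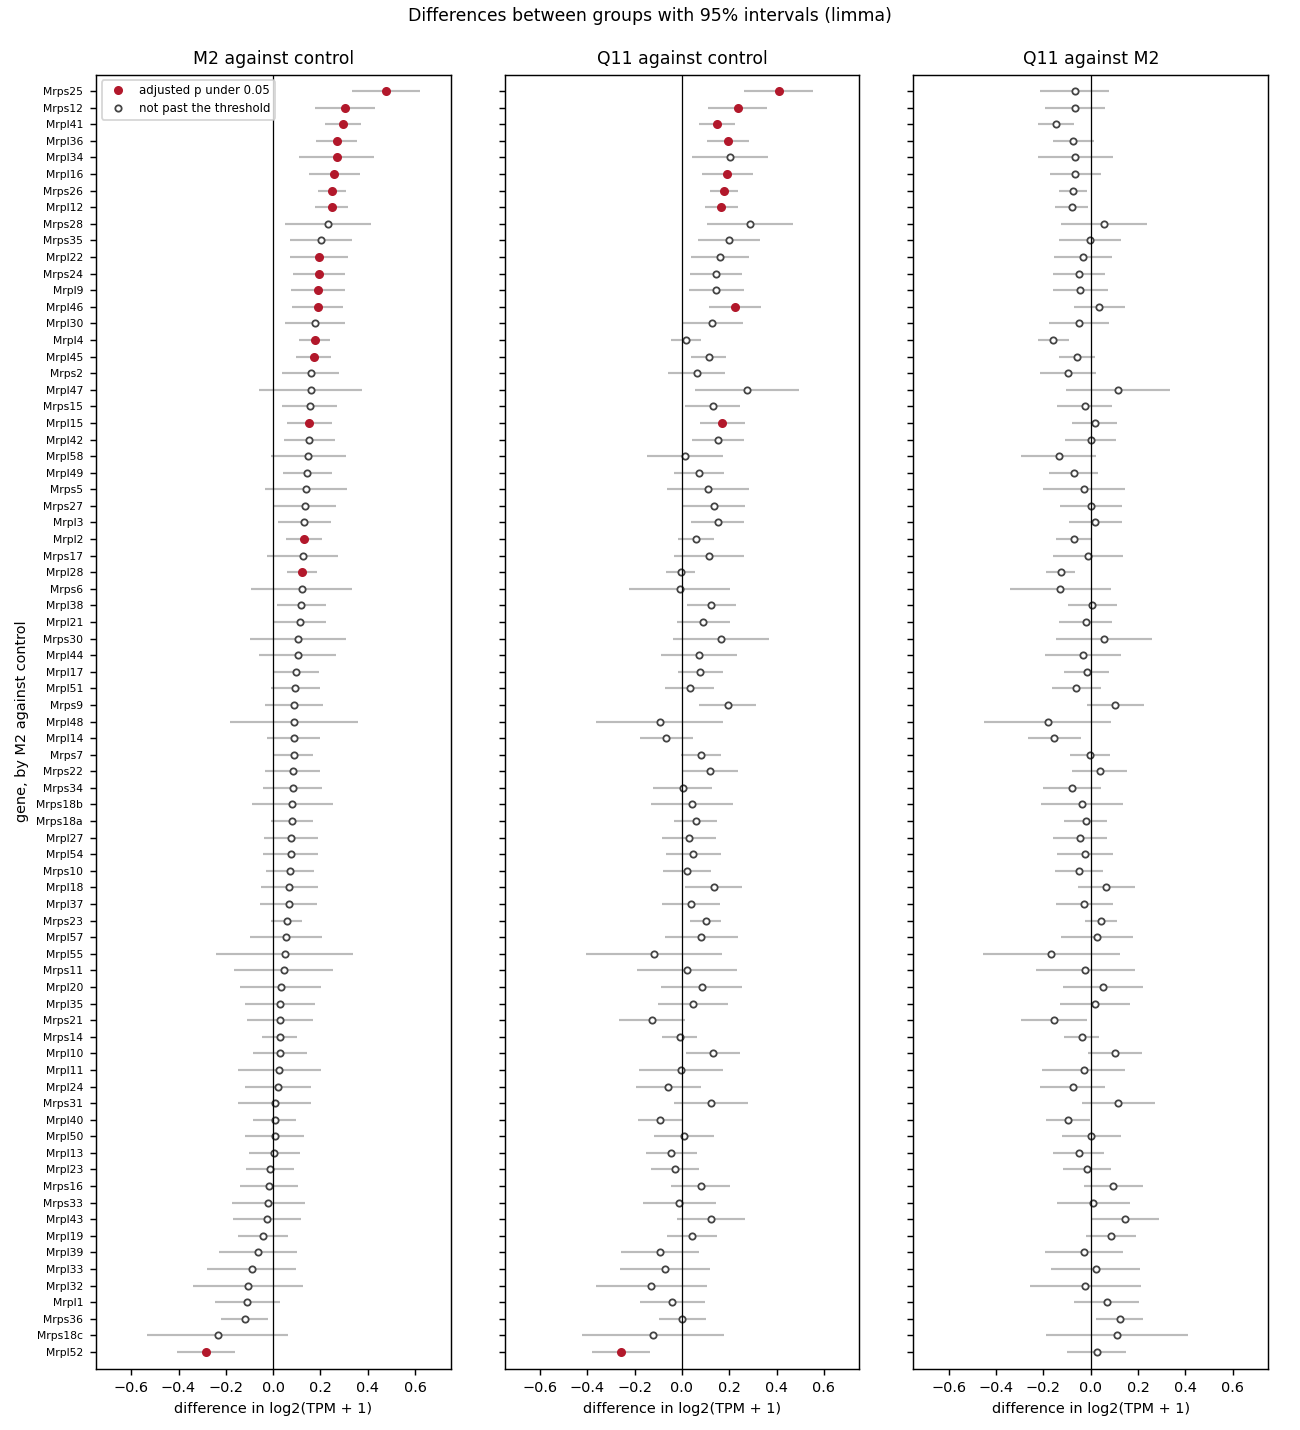
Difference in log2(TPM + 1) with its 95% interval from limma for each of the 77 genes in the 3 comparisons, in the order of M2 against control. In M2 against control 17 members rose and Mrpl52 fell, and in Q11 against M2 no member was called.

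The second comparison, Q11 against M2, asks what Q11 added to the cytokines. By limma, 0 of the 77 members were called in either direction, and 0 of all 14207 genes (background 0%). At an unadjusted p under 0.05 there were 10 members (13% of 77), against 1620 genes (background 11.4%). Of these members 2 were higher (background 6.05%) and 8 lower in Q11 (background 5.36%). On recovered reads, limma-voom called 0 members and 1 gene in each direction. The median difference of the members was -0.03, against -0.00 for all genes, and 27 of 77 were above 0 (all genes 49.6%). The libraries did not overlap in 3 members that were higher (background 9.18%) and 9 that were lower (background 8.43%). The 3 were Mrps36, Mrpl43 and Mrps23, the last 2 named after their values were seen. With reads separated, 2 members were higher without overlap and 8 lower, against 980 and 763 of 13755 genes. Mrps36 then overlapped. The 95% intervals of the members over the 3 comparisons had a median half-width of 0.12, and of 0.14 with reads separated. They are not adjusted for the number of genes tested, so differences above this size could also go uncalled.

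Mrpl4, the tunnel protein, had the smallest p. Its Q11 libraries (91.2, 90.1 and 89.2 TPM) stood below its M2 libraries (98.3, 101 and 103 TPM), by -0.16 with a 95% interval of -0.22 to -0.09 (limma adjusted p = 0.256). Mrpl28 differed by -0.13 (95% interval -0.19 to -0.06) and Mrpl41 by -0.15 (-0.22 to -0.07), each with limma adjusted p = 0.294 and no overlap. Mrpl14, the counterpart of a bacterial protein at the face between the subunits, was at 178, 184 and 189 TPM in M2 and 176, 160 and 159 TPM in Q11. It was lower in all Q11 libraries (-0.15, 95% interval -0.27 to -0.04, limma adjusted p = 0.357). Mrps21, at 214, 205 and 210 TPM in M2 and 204, 172 and 190 TPM in Q11, also did not overlap (-0.15, 95% interval -0.30 to -0.01, limma adjusted p = 0.398). Mrps26 and Mrpl12 were lower by smaller amounts, -0.07 (95% interval -0.13 to -0.01) and -0.08 (-0.15 to -0.01), with limma adjusted p of 0.379 and 0.383. Mrps36 was the one gene of these 8 that was higher in Q11, by 0.12 (95% interval 0.02 to 0.22, limma adjusted p = 0.379), and with reads separated its interval was -0.07 to 0.23. The other gene higher at an unadjusted p under 0.05 was Mrpl43 (0.15, limma adjusted p = 0.426). Mrps25 and Mrps12, which rose most in M2, overlapped between Q11 and M2, with differences of -0.07 (95% interval -0.21 to 0.08) and -0.07 (-0.19 to 0.06). The intervals of all 77 genes are in the plot of differences between groups.

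The third comparison, Q11 against control, uses the same control libraries as the first. There, 9 members rose (background 5.19%) and Mrpl52 fell (background 5.53%), with a median of 0.08 over the members and 0.00 over all genes. Without overlap, 28 members were higher (background 16.3%) and 2 lower (background 15.8%), Mrpl52 and, named after its value was seen, Mrpl40 (-0.09, limma adjusted p = 0.212). With reads separated, 20 members were higher without overlap and 2 lower, against 1919 and 1755 of 13755 genes. The risen genes were Mrps26, Mrps25, Mrpl12, Mrpl36, Mrpl46, Mrpl41, Mrps12, Mrpl15 and Mrpl16. Mrps26 differed by 0.18 (SE 0.0261, limma adjusted p = 0.00331) and Mrpl12, the stalk protein, by 0.17 (SE 0.0306, limma adjusted p = 0.00983). Mrpl36 was higher by 0.19 (limma adjusted p = 0.0134), Mrpl46 by 0.22 (limma adjusted p = 0.0186) and Mrps12 by 0.24 (limma adjusted p = 0.0291). Mrpl41, Mrpl15 and Mrpl16 were higher by 0.15, 0.17 and 0.19 (limma adjusted p = 0.0227, 0.0341 and 0.0354). Mrpl52 was lower by 0.26, that is a difference of -0.26 (limma adjusted p = 0.0179). With reads separated, 5 members rose (background 3.88%) and 1 fell (background 4.06%): Mrpl12, Mrpl15, Mrpl41, Mrps25 and Mrps26 rose and Mrpl52 fell. The count of risen members was 3 without Q11 replicate 3 (background 2.57%) and 4 without control replicate 1 (background 3.61%). It was 5 without Q11 replicate 2 (background 2.44%). Mrpl52 was not called without control replicate 2, control replicate 3 or Q11 replicate 2. Mrpl12, Mrps25 and Mrps26, 3 of the 10 called genes, kept their call in all 18 alternative settings.

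Summed over all 77 members, the level was 5482, 5603 and 5518 TPM in control, 5907, 6037 and 6052 TPM in M2 and 5959, 5721 and 5817 TPM in Q11. All treated libraries were above all control libraries, by 8.39% for the M2 mean and 5.39% for the Q11 mean, and M2 and Q11 overlapped. With reads separated, Q11 replicate 2 was at 5637 TPM, a narrow margin above the highest control library at 5603 TPM. Large-subunit genes summed to 3868 ± 40.5 TPM (SD, n = 3) in control, 4203 ± 73.1 TPM in M2 and 4077 ± 68.9 TPM in Q11. For the small subunit, the sums were 1617 ± 24.9, 1750 ± 11.8 and 1706 ± 48.4 TPM. These Q11 sums are as deposited, and their SDs can be too small because Q11 replicates 2 and 3 share reads. By library, M2 replicate 3 had the highest level of the 9 in 22 of the 77 genes, and control replicates 1 and 3 the lowest in 18 each.

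The partners of these proteins were described from fixed lists. The 13 messenger RNAs that the mitochondrial ribosome translates summed to 65191, 63027 and 64077 TPM in control, 57961, 62682 and 52675 TPM in M2 and 63852, 66836 and 67039 TPM in Q11. By this sum every M2 library was below every control library, while for the 77 nuclear genes every M2 library was above. The margin was narrow for the 13, with M2 replicate 2 at 62682 TPM and control replicate 2 at 63027 TPM. Gene by gene, 2 of the 13 were lower in M2 without overlap (background 13.9%) and 0 higher (background 14.5%). The Q11 sums overlapped those of control. Of the 13, 1 was called in M2 against control: mt-Co1, a core subunit of cytochrome c oxidase, fell from 18221 ± 349 to 15859 ± 657 TPM (-0.20, limma adjusted p = 0.0114, and 0.0229 with reads separated). The median of the 13 was -0.20 in M2 against control and 0.23 in Q11 against M2, where 0 of 13 were called.

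**Figure D5:**
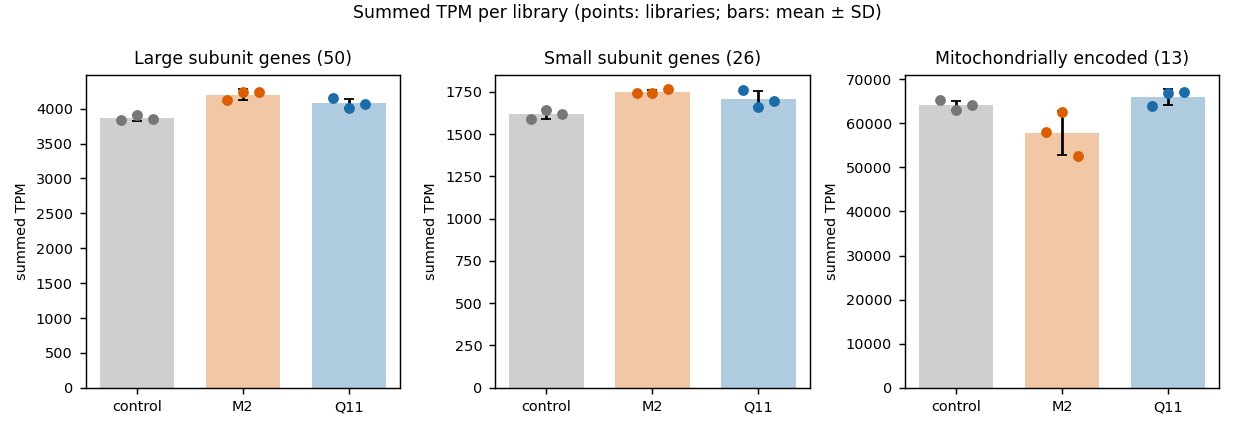
Summed TPM per library of the large-subunit genes (50), the small-subunit genes (26) and the 13 mitochondrially encoded messenger RNAs, with points for libraries and bars for the mean with the SD. The sums of both subunits are higher in all M2 libraries than in all control libraries. The sum of the mitochondrial messenger RNAs is lower, by a narrow margin in M2 replicate 2.

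The counts of the nuclear lists are to be read beside all genes tested, of which 6.88% rose in M2 and 5.19% in Q11 against control, so that 1 of 20 or 1 of 15 is near the background. The ribosomal proteins named without the Mrp stem had 1 of 5 risen in M2 (median 0.13). This was Gadd45gip1, a protein near the exit tunnel, which went from 22.7 ± 1.33 to 27.4 ± 2.03 TPM (0.26, limma adjusted p = 0.0255). In Q11 against control 3 of the 5 rose: Gadd45gip1, Ptcd3 and Dap3, the last a GTP-binding protein of the small subunit. With reads separated this was 1 of 5, since Ptcd3 and Dap3 missed the threshold (limma adjusted p = 0.0621 and 0.0509). Among assembly and rRNA modification factors 3 of 29 rose in M2 (median 0.12). Rbfa, which matures the small subunit, went from 44.0 ± 0.671 to 55.1 ± 5.30 TPM (0.31, limma adjusted p = 0.0134). Mtg1, a GTPase of large-subunit assembly, differed by 0.31 (limma adjusted p = 0.0222) and Dhx30, an RNA helicase, by 0.15 (limma adjusted p = 0.0341). With reads separated 2 of 29 rose, without Dhx30 (limma adjusted p = 0.052). In Q11 against control, Rbfa was the 1 of 29 called (0.30, limma adjusted p = 0.0172), and it was lost with reads separated (limma adjusted p = 0.0772).

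Translation factors had 2 of 16 risen in M2 (median 0.11). They were Tufm, the elongation factor that brings in aminoacyl-tRNA (196 ± 9.80 to 224 ± 5.55 TPM, limma adjusted p = 0.0249), and Taco1, an activator of mt-Co1 translation (36.6 ± 2.47 to 42.8 ± 0.807 TPM, limma adjusted p = 0.0217). Of 20 genes for mitochondrial aminoacyl-tRNA synthesis 1 rose (median 0.13): Gatb, a subunit of the enzyme that makes glutaminyl-tRNA (0.21, limma adjusted p = 0.0193). Of 15 transcription and RNA processing genes tested 1 rose (median 0.11): Elac2, which cuts the 3′ ends of tRNAs (0.21, limma adjusted p = 0.0244). In Q11 against control the calls in these 3 lists were Gfm1, an elongation factor (1 of 16), Mtpap and Supv3l1, a poly(A) polymerase and an RNA helicase of mitochondria (2 of 15), and 0 of 20. With reads separated Mtpap was the 1 call of these, and Gfm1 and Supv3l1 missed the threshold (limma adjusted p = 0.0739 and 0.11). The M2 calls in the 3 lists held with reads separated. Among 10 regulators of mitochondrial biogenesis tested, Myc was the 1 called in M2, at 14.9 ± 1.81 TPM in control, 22.3 ± 0.556 TPM in M2 and 22.5 ± 0.884 TPM in Q11. It rose by 0.56 in M2 (limma adjusted p = 0.00198) and by 0.57 in Q11 (limma adjusted p = 0.00195), and both calls held with reads separated. The cytoplasmic ribosomal proteins, which belong to the other ribosome of the cell, had 12 of 87 risen in M2 (median 0.07) and 4 of 87 in Q11 against control (median 0.01). With reads separated these counts were 4 and 2 of 87. As deposited, 79 of the 87 were above 0 in M2 against control (all genes 49.4%). Without overlap, 34 were higher (background 14.5%) and 1 lower (background 13.9%). For the 77 members these counts were 65, 29 and 2, so a broad small rise was not particular to them. The 4 cytoplasmic genes with the smallest p in M2 were Rpl7a, Rps9, Rpl18 and Rps2, with differences of 0.15, 0.11, 0.15 and 0.12. Of these, Rps9 and Rpl18 lost their call with reads separated (limma adjusted p = 0.0574 and 0.112). No list had a called gene in Q11 against M2 (limma, adjusted p under 0.05). The members' medians of 0.09 in M2 and 0.08 in Q11 against control stand beside these as descriptions, and no test compared the lists.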

How the data were processed

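Poly-A RNA of 9 J774A.1 libraries was sequenced, and the authors deposited TPM for 26157 genes. HISAT2 2.0.5, StringTie 1.3.3b and the build GRCm38 (mm10) are named per the submitters' processing notes; the annotation and counting settings are not given in the sources used here. TPM multiplied by GENCODE M21 exon lengths were whole multiples of 1 step per library (98.8% to 99.1% of low values within 0.1 read, and all 77 members), which gave the reads.

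The 14207 genes that reached 1 TPM in 3 or more libraries were analysed as log2(TPM + 1), which understates changes of low genes. limma 3.58.1 in R 4.3.3 fitted 1 mean per group to all 9 libraries (lmFit, contrasts.fit, eBayes with trend), with Benjamini-Hochberg adjustment over all genes tested and two-sided calls at 0.05; simulated data were used to test the script. The separated fit tested 13755 genes with 15002925 reads left in Q11 replicate 2. limma-voom, on those reads scaled by trimmed means of M values, called 1139 genes risen and 1110 fallen in M2 against control. Copies were found with blastn 2.17.0.

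Members and lists were chosen with earlier results of these data known. Named genes were all called members, at least the 8 with the smallest p in a comparison, the 5 highest and 5 lowest, 9 genes fixed by role, and up to 4 called genes of each list.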

Additional observations from a re-analysis of the deposited data

How the results depend on the processing

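For the named genes, 357 values under the 18 alternatives kept their side of the threshold in M2 against control, 92 lost it and 1 gained it. In Q11 against control 245 kept it, 49 lost it and 1 gained it. The values that kept it include those of named genes not called in that comparison, and every value that lost it belonged to a called gene. In M2 against control, 9 of the 18 called genes kept their call in all 18 alternatives. Mrpl22 kept it in 3, Mrpl9 and Mrpl15 in 4 each and Mrpl2 in 5. In M2 against control 17 members rose (background 6.88%). With no filter on low values this became 10 (background 2.78%), and with no mean-variance trend 9 (background 4.58%). Reads separated gave 10 (background 4.99%), and only the libraries of the compared groups gave 11 (background 4.23%). Leaving out each library gave 10 to 16 (background 4.33% to 6.29%). The fall of Mrpl52 (1 gene, background 5.75%) became 0 with reads separated (background 4.35%). The median was 0.11 without control replicate 2 and 0.11 without M2 replicate 1 (0.079 to 0.11 over single libraries left out). In Q11 against control 9 members rose (background 5.19%). This became 5 with no trend (background 3.37%), a replicate block (background 3.55%) or reads separated (background 3.88%). It was 3 to 12 when a library was left out (background 2.44% to 5.68%). The 1 fallen (background 5.53%) became 0 with a replicate block (background 4.09%). It was 0 to 1 with a library left out (background 2.93% to 5.82%). A stricter filter of 5 TPM gave 18 risen in M2, with 9.99% of genes risen. The replicate block gave 12 risen in M2 (background 5.03%). Deviations of same-numbered libraries correlated at -0.11 to 0.11, and those of differently numbered libraries at -0.19 to 0.13. This shows no pairing by number but cannot exclude one. Genes that changed sign were not called. Mrps18c was at 0.11 in Q11 against M2 in the main fit, and the others were nearer 0. In Q11 against M2, Mrps18b was at 0.025 with reads separated, and leaving out single libraries gave -0.016 to 0.26 for Mrps18c, -0.087 to 0.031 for Mrps18b and -0.052 to 0.0040 for Mrps18a. In Q11 against control, Mrpl58 was at -0.012 separated and -0.0027 with voom, and Mrps36 at -0.014 with quantile normalization, -0.040 separated and -0.019 with voom. Leaving out single libraries gave -0.019 to 0.045 for Mrpl58, -0.032 to 0.043 for Mrps36 and -0.0017 to 0.11 for Mrps18b. The cause was not tested. Depth limits the least read genes most, such as Mrps18c with 127 to 305 reads per library.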

Other observations

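Genes next to called members are given here as values, with no test between them and the members. Of 3 genes that share a start region with a member called in M2 against control, 1 was called. This was Klc4, a kinesin light chain opposite Mrpl2, which went from 91.7 ± 1.69 to 103 ± 4.13 TPM (0.17, limma adjusted p = 0.0148), beside 0.13 for Mrpl2. Sars2, the mitochondrial seryl-tRNA synthetase opposite Mrps12, averaged 14.8 ± 1.55 TPM over the control libraries and 16.1 ± 1.42 TPM over M2 (0.11, limma adjusted p = 0.471), and Pnpla7 opposite Mrpl41 differed by 0.14 (limma adjusted p = 0.185). For members that were not called, 1 of 14 such partners was called. Genes whose exons overlap a called member include Nr2c2, which overlaps Mrps25 and averaged 10.7 ± 0.396 TPM over the control libraries and 10.7 ± 0.0892 TPM over M2, and Ndufs6, a complex I subunit that overlaps Mrpl36 (0.08, limma adjusted p = 0.612).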
